A study of Homo sapiens with 8 samples.

Results

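The genes described here are PARP9, DTX3L, PARP14, PARP10, PARP12 and PARP8, set against PARP1 and PARP2, 8 genes of the 24462 gene symbols in the count table. They were taken from the table by symbol, with earlier results of these data known, and each has 1 row in it. RNA was sequenced from 4 established human cancer cell lines, each cultured with human recombinant IFN-gamma at 20 ng/ml for 72 hours or left untreated, with 1 library per line and arm (8 libraries). The lines were 549 and H1703, both given as lung cancer lines, A375, a melanoma line, and A498, a kidney carcinoma line, all grown in RPMI medium with fetal bovine serum, penicillin and streptomycin. The labels name no replicate culture, so the 4 lines stand as replicates and each p-value measures the spread of the response between lines.

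PARP proteins carry an ADP-ribosyltransferase domain that uses NAD+ as its donor. PARP1 and PARP2 are nuclear enzymes that build chains of ADP-ribose at DNA strand breaks, while PARP10, PARP12, PARP14 and PARP8 are mono-ADP-ribosyltransferases that attach a single unit. PARP9 binds DTX3L, a ubiquitin ligase of the Deltex family, and PARP9, DTX3L, PARP10, PARP12 and PARP14 are known as interferon-stimulated genes. IFN-gamma signals through JAK kinases to transcription factors that bind GAS elements, and complexes with IRF9 and members of the IRF family bind ISRE elements.

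Promoter sequences are shown first, since both elements can be looked for in them. They come from RefSeq (GRCh38.p14, 250 bases before to 50 after an annotated start), whereas the counts were made on hg19, so positions hold for the sequence only. The GAS letters searched were TTCNNNGAA and the ISRE core was GAAA, any pair of bases and GAAA again, on both strands. No match of one motif overlapped a match of the other in these windows. Capitals mark matches to either motif, and each sequence runs 5′ to 3′ on its gene's own strand.
PARP9, second annotated start, chr3:122564251-122564550, minus strand: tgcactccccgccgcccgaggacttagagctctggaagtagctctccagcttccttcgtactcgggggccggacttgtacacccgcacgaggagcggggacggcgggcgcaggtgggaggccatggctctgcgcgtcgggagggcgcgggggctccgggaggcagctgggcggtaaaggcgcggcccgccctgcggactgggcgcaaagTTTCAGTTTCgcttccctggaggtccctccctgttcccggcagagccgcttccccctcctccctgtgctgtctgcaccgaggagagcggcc
PARP14, chr3:122680589-122680888, plus strand: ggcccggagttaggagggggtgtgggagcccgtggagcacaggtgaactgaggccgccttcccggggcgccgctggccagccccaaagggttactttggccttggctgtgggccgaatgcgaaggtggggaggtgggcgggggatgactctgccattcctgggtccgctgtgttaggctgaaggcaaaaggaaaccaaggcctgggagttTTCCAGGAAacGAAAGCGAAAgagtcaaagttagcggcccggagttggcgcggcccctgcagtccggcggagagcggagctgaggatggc
PARP12, chr7:140062902-140063201, minus strand: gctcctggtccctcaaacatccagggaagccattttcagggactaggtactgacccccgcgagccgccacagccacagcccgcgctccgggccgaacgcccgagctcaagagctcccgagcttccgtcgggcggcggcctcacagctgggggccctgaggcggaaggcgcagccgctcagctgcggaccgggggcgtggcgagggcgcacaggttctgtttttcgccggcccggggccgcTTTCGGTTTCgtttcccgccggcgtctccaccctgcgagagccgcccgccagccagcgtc
PARP1, chr1:226408044-226408343, minus strand, shown as a window with no match: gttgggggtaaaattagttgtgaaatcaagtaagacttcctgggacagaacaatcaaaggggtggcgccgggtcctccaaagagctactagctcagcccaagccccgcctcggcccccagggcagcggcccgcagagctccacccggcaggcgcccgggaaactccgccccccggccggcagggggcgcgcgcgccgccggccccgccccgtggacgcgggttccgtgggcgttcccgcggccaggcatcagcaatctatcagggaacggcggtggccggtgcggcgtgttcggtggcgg

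ISRE core letters stood in the windows of 4 genes, PARP9, DTX3L, PARP14 and PARP12, of the 5 among the first 6 genes that have a RefSeq window, and PARP8 had none at any of its 3 starts. At PARP9 the match stood in the window of the second start only, and that of the first held neither motif. Neither PARP1 nor PARP2 held the ISRE core letters. Among all windows of this length, 3.57% of 35116 held the ISRE core and 7.66% held the GAS letters. Counted by gene, with a match in any window, the shares were 4.38% and 9.38% of 27305. PARP9 and DTX3L lie head to head on opposite strands, and the match is one and the same run of 10 bases for both (GAAACTGAAA on the plus strand, chr3:122564332-122564341). Counting the start as 1 and the base before it as -1, it lies at -41 to -32 of the second PARP9 start and at -6 to 4 of DTX3L. In PARP14, TTCCAGGAA at -40 to -32 was followed by GAAAGCGAAA at -29 to -20. In PARP12 the match, GAAACCGAAA on the strand opposite to the gene, stood at -10 to -1. Among the 8 genes the only other GAS match was TTCCCAGAA in PARP2, at -154 to -146. These are matches of letters, and no binding was measured.

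**Figure D1:**
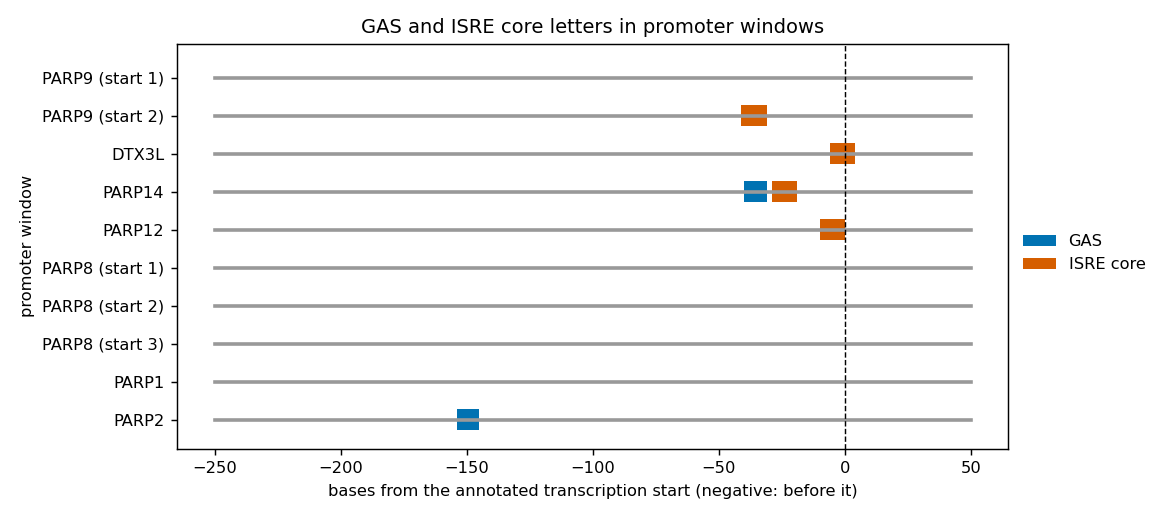
GAS letters (blue) and ISRE core letters (orange) in the promoter windows of 7 genes, 1 grey line per annotated start; the x axis is the distance in bases from that start (dashed line). The ISRE core matches of PARP9 (second start only), DTX3L, PARP14 and PARP12 all lie between -41 and 4.

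Total counts per library ranged from 6559933 to 9291154, and 13457 genes passed the filter on low counts, all 8 of these among them. Levels are given as CPM (counts of a gene relative to the library's TMM-scaled total), and responses as log2 fold changes of IFN-gamma over untreated from edgeR's quasi-likelihood test with cell line in the model, with p-values adjusted over all tested genes by Benjamini-Hochberg. The fit called 214 genes higher (1.59% of those tested) and 44 lower (0.327%) at an adjusted p under 0.05. The 7 melanocyte markers summed to 601 CPM in treated and 914 CPM in untreated A375, against at most 58.1 CPM in any other library. SOX10, MITF and DCT carried most of the A375 sum, while PMEL, MLANA, TYR and TYRP1 each had at most 28 counts there. TYRP1 had 4 counts in treated and 2 in untreated A375, against 7 in untreated A498. The 6 renal tubule markers summed to 439 CPM in treated and 510 CPM in untreated A498, against at most 52.4 CPM elsewhere. PAX8 and GPX3 carried most of the A498 sum. CUBN went the other way, with 57 counts in treated and 84 in untreated A375, against 6 and 9 in A498. LHX1 had more counts in treated H1703 (362) than in treated (253) or untreated (270) A498. The 8 lung epithelium markers were near 0 in both lung lines (1.74 and 1.56 CPM in treated 549 and H1703, 3.77 and 1.80 CPM untreated), with 5 and 6 of the 8 at 0 counts in the treated libraries and 4 and 5 in the untreated ones. A further 5 epithelial markers (KRT8, KRT18, KRT19, EPCAM and CDH1) summed to 4006 CPM in treated and 4983 CPM in untreated 549. In A498 they summed to 1260 and 1032 CPM, in the same order of arms. H1703 had only 20.0 and 24.5 CPM of them, below A375 (51.6 and 42.3 CPM). Leukocyte markers summed to at most 5.82 CPM and endothelial markers to at most 6.15 CPM in any library.

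Of the 6 genes from PARP9 to PARP8, 5 rose with IFN-gamma (edgeR), where 1.59% of all tested genes rose, and none fell. PARP8 did not pass the threshold, and neither PARP1 nor PARP2 did. In 4 genes, PARP9, DTX3L, PARP14 and PARP12, every treated library lay above every untreated one, as in 1.78% of all tested genes. All 6 were above 0 in each of the 4 lines, as were 15% of tested genes. For PARP8 in 549 this rests on 2 treated and 0 untreated counts, too few to give a direction.

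**Figure D2:**
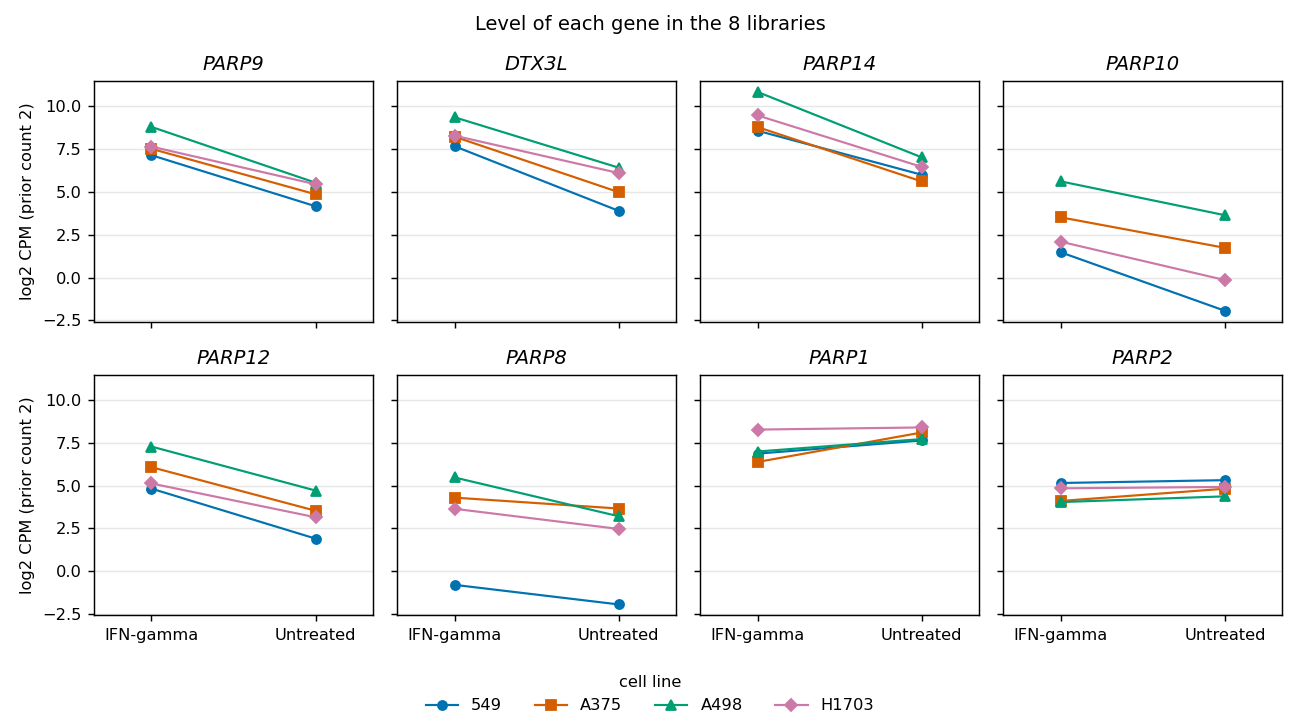
Level of each gene in the 8 libraries as log2 CPM with a prior count of 2; a line joins the treated library (left) to the untreated library (right) of a cell line. Treated and untreated levels do not overlap for PARP9, DTX3L, PARP14 and PARP12, and all 4 lines slope the other way for PARP1 and PARP2. Heights of different genes are not comparable, since values are not per length.

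The partners PARP9 and DTX3L were both higher in the treated library of every line. PARP9, which binds ADP-ribose through macrodomains, had 142, 184, 447 and 201 CPM in treated 549, A375, A498 and H1703 cells, against 17.7, 28.9, 46.3 and 43.5 CPM in the untreated libraries of the same lines. The lowest treated library, 549, lay well above the highest untreated one, A498. Its log2 fold change was 2.78 ± 0.22 (SE, adjusted p = 0.000413, higher in 4 of 4 lines).

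DTX3L had 204, 300.4, 660.1 and 313 CPM in treated 549, A375, A498 and H1703 cells, against 14.6, 31.5, 85.4 and 68.6 CPM untreated. A498 was highest and 549 lowest in both arms, and the arms did not overlap. Its log2 fold change was 3.04 ± 0.27 (SE, adjusted p = 0.0007047, 4 of 4 lines). The fold by line was largest in 549, at 13.9 (exact 95% interval 11.4 to 17.2, counting error only), and smallest in H1703, at 4.56 (4.16 to 5.02). Because PARP9 and DTX3L overlap on opposite strands and the use of strand in counting is not given, reads from the overlap could count for either gene.

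The count of PARP9 relative to that of DTX3L was nearly the same in all 4 treated lines and varied among the untreated ones, an observation made after the values were seen. The ratio was 0.696, 0.611, 0.677 and 0.641 in treated 549, A375, A498 and H1703, and 1.21, 0.916, 0.542 and 0.634 in the untreated lines. Counting error alone leaves wide limits on the untreated 549 ratio (exact 95% interval 0.920 to 1.59, from 122 and 101 counts), while that of untreated A498 (0.471 to 0.623) lies clear of it. On the log2 scale the 4 ratios spanned 0.19 in treated and 1.16 in untreated lines. Among the 6 pairs of PARP9, DTX3L, PARP14 and PARP12, the span was smaller in treated lines in every pair, with treated spans of the other 5 pairs from 0.77 to 1.64. No test of these spans was made. Counts were lower without IFN-gamma (DTX3L 101 to 579, against 1291 to 4973 treated), so counting error weighs more on the untreated spans. Reads from the overlap of PARP9 and DTX3L could also enter the ratio of these 2 genes.

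PARP14, a macrodomain protein with mono-ADP-ribosyltransferase activity, was higher in the treated library of every line, with the largest fold in the kidney line. It had 382, 443, 1838 and 711 CPM in treated 549, A375, A498 and H1703 cells, against 63.9, 48.7, 129.6 and 88.0 CPM untreated. A498 was highest in both arms, and the 4 treated libraries lay above all untreated ones. The log2 fold change was 3.15 ± 0.24 (SE, adjusted p = 0.0003722, 4 of 4 lines), and the fold by line ran from 5.97 in 549 (5.40 to 6.63) to 14.2 in A498 (13.2 to 15.2).

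PARP12, a zinc finger mono-ADP-ribosyltransferase, had the smallest spread of response over lines of the 8 genes apart from PARP2 (SD of the log2 ratio 0.39 and 0.28). It had 28.1, 67.3, 156 and 34.7 CPM in treated 549, A375, A498 and H1703 cells, against 3.48, 11.3, 26.0 and 8.62 CPM untreated. The order of the lines, A498 above A375, H1703 and 549, was the same in both arms. Its log2 fold change was 2.52 ± 0.21 (SE, adjusted p = 0.0005814, 4 of 4 lines).

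PARP10, a mono-ADP-ribosyltransferase first described as a partner of MYC, was counted sparsely in 3 of the lines. With IFN-gamma the counts were 369 in A498, 90 in A375, 36 in H1703 and 16 in 549, and without it 83, 28, 5 and 0 in the same order of lines. In CPM, treated A375 (11.2), H1703 (4.02) and 549 (2.53) all lay below untreated A498 (12.2), so the arms overlapped. Set against the 3 counts that a count of 0 allows, the level in 549 was at least 5.81-fold higher with the 16 treated counts taken as exact, and the exact 95% interval, which covers counting error in both libraries, began at 4.20. The fold in H1703 was 6.24 with an exact 95% interval of 2.44 to 20.4. The log2 fold change was 2.29 ± 0.41 (SE, adjusted p = 0.02851, 4 of 4 lines). Without A498 the call was lost (adjusted p = 0.1613), and without H1703 likewise (0.05732). On the opposite strand PARP10 overlaps GRINA, which was not called (log2 fold change 0.41 ± 0.16, adjusted p = 0.196), and SPATC1, which did not pass the filter, so its counts are uncertain in the same way as those of PARP9 and DTX3L.

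PARP8, a mono-ADP-ribosyltransferase with a less studied role, was not called. Its counts with IFN-gamma were 334 in A498, 156 in A375, 110 in H1703 and 2 in 549, and without it 61, 113, 41 and 0 in the same order of lines. In 549 both libraries were under the 3 counts that a count of 0 allows, so no fold is given there. In A498 the fold was 4.93 (3.74 to 6.59), against 1.57 in A375 (1.22 to 2.02) and 2.33 in H1703 (1.61 to 3.42). The log2 fold change was 1.42 ± 0.36 (SE, adjusted p = 0.08826). DESeq2 called it higher (adjusted p = 0.01546), as did edgeR with no filter (0.02204) and edgeR's likelihood ratio test (0.005419).

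PARP1 and PARP2 were lower in the treated library of every line, and neither was called. PARP1 had 117, 83.3, 127 and 309.7 CPM in treated 549, A375, A498 and H1703 cells, against 199, 275, 211 and 338 CPM untreated. Treated H1703 lay above the untreated libraries of the other 3 lines, so the arms overlapped, and so did those of PARP2 (every treated library lay below every untreated one in 1.1% of tested genes). The log2 fold change was -0.83 ± 0.25 (SE, adjusted p = 0.1229, lower in 4 of 4 lines), and both DESeq2 (adjusted p = 0.03773) and edgeR's likelihood ratio test (0.03474) called it lower. The fold was 0.302 in A375 (0.277 to 0.330) and 0.917 in H1703 (0.869 to 0.967). In bulk RNA, fewer cells that express a gene and less RNA per cell cannot be told apart.

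PARP1 was set beside 20 genes of DNA replication, a list written after the PARP1 values were seen. Of these, 0 were called by edgeR over the 4 lines (12 at an unadjusted p under 0.05, 3 lower by DESeq2), with a median log2 fold change of -0.71. By line, the median log2 ratio of IFN-gamma over untreated stood at 0.02 in H1703, -0.47 in A498, -0.997 in 549 and -1.38 in A375. The log2 ratios of PARP1 were -0.13, -0.73, -0.77 and -1.72 in the same order of lines. The order of the 4 lines was the same for both, though A498 and 549 were nearly tied for PARP1. The exact 95% intervals of the PARP1 fold in A498 and 549 overlapped (0.555 to 0.655 and 0.534 to 0.640, counting error only). The part of the replication genes in the PARP1 values was not tested. LIG1 and FEN1 are also among the strand break partners.

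PARP2 had 35.4, 16.96, 16.2 and 28.5 CPM in treated 549, A375, A498 and H1703 cells, against 39.7, 28.0, 20.5 and 30.1 CPM untreated. The interval of the count ratio lay below 1 in A375 only (0.606, 0.488 to 0.749). Its log2 fold change was -0.32 ± 0.19 (SE, adjusted p = 0.3643). On the opposite strand PARP2 overlaps the antisense genes AL355075.4 and AL355075.1, which are not in the count table. Reads from them could count for PARP2, since the use of strand in counting is not given.

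**Figure D3:**
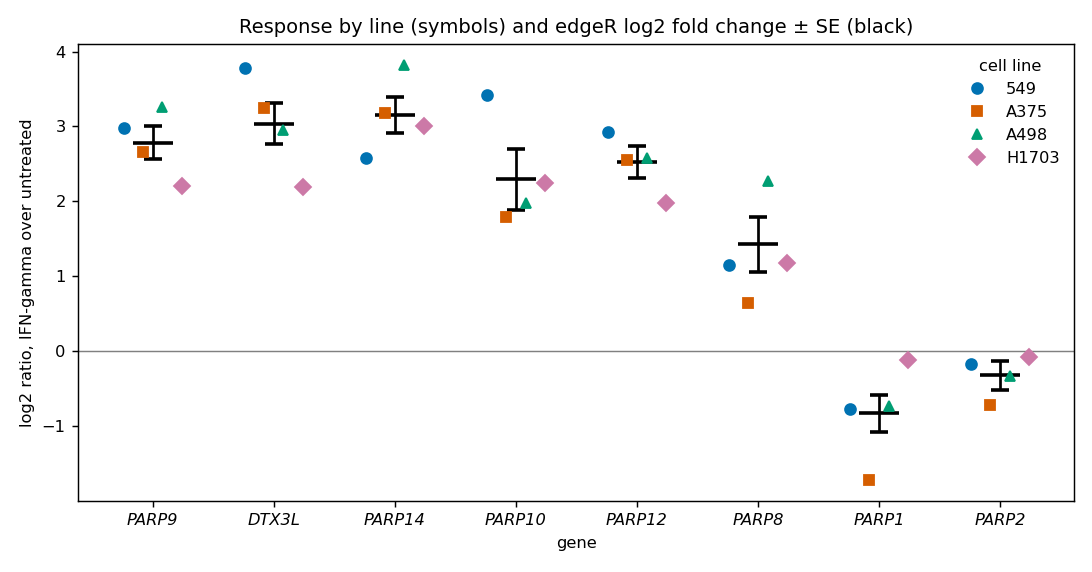
Response of each gene as the log2 ratio of IFN-gamma over untreated, with 1 symbol per cell line and, in black, edgeR's log2 fold change ± SE over the 4 lines. PARP9 to PARP8 are above 0 in all 4 lines, PARP1 and PARP2 below 0 in all 4, and A375 is lowest for both PARP1 (-1.72) and PARP2 (-0.71). The 549 symbols of PARP10 and PARP8 rest on 0 untreated counts and a prior count of 2.

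The contrast with PARP1 was also taken inside each library as the ratio of 2 counts, which needs no scaling between libraries. Relative to PARP1, the log2 change was 3.62 ± 0.90 for PARP9, 3.88 ± 1.18 for DTX3L, 3.99 ± 0.87 for PARP14, 3.72 ± 1.54 for PARP10, 3.37 ± 0.92 for PARP12 and 2.49 ± 0.85 for PARP8 (mean ± SD, n = 4 lines). Each was above 0 in 4 of 4 lines, and in the exact two-sided paired sign permutation 2 of the 16 assignments of sign were as extreme, the smallest p that 4 lines can give and above 0.05. The PARP10 and PARP8 values include 549, where the untreated count was 0 and the prior count sets the ratio. Without 549 they were 2.98 for PARP10 and 2.24 for PARP8, and with a prior count of 5 they were 2.75 and 1.98. For PARP2 against PARP1 the change was 0.51 ± 0.40, also above 0 in 4 of 4 lines. Against PARP2 instead of PARP1, the changes ran from 1.98 ± 0.75 for PARP8 to 3.48 ± 0.67 for PARP14. These values contain the lower counts of PARP1 and PARP2 as well as the higher counts of the other genes.

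**Figure D4:**
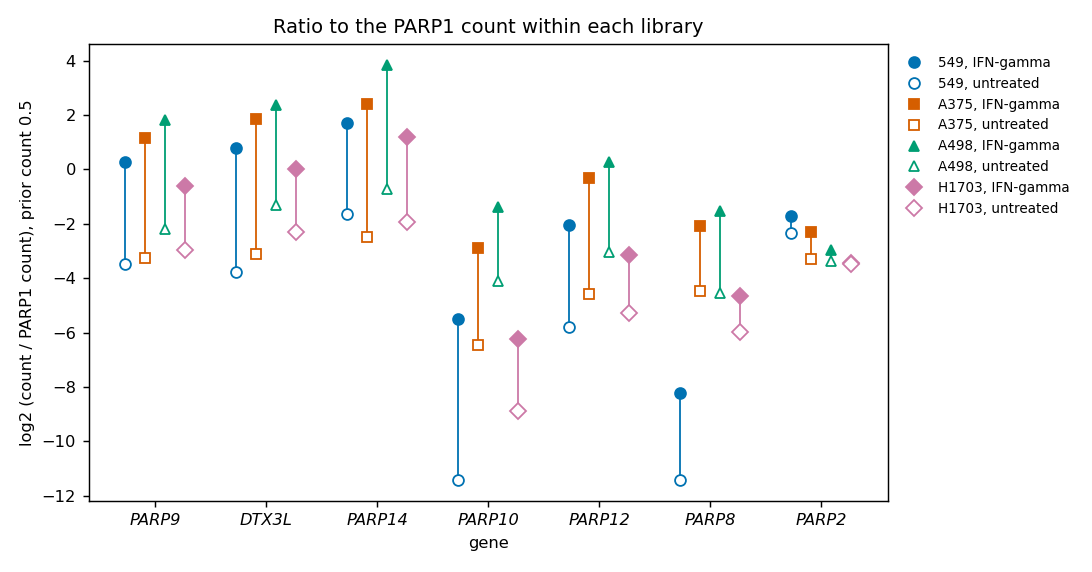
Log2 of each gene's count over the PARP1 count of the same library (prior count 0.5), filled symbols for IFN-gamma and open symbols for untreated, joined within a line. The filled symbol lies above the open one in every line, by 2.31 to 4.97 for DTX3L and by 0.04 to 1.00 for PARP2; only shifts within a gene are comparable, since counts are not per length.

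No difference of the response between lines passed the threshold for any of the 8 genes, and of all tested genes 0 were called (0%) in each of the 5 interaction fits by edgeR, with 418 to 1153 genes at an unadjusted p under 0.05. The fits set each line against the other 3, and both lung lines against A375 and A498. A single line has 1 library per arm, so the SE and p of its fit rest on the spread among the other 3 lines and assume that the single line varies like them. The log2 response of DTX3L in H1703 minus that in the other 3 lines was -1.13 ± 0.45 (SE, unadjusted p = 0.03999, adjusted p = 1), and that of PARP1 in A375 was -1.18 ± 0.42 (SE, unadjusted p = 0.02059, adjusted p = 0.4633). PARP10 in 549 had an unadjusted p of 0.01971 (adjusted p = 1), with 0 untreated counts there. DESeq2 and limma-voom called none of the 8 genes in these fits either, while DESeq2 called 7 to 71 other genes and limma-voom 0.

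The rest of the ADP-ribosyltransferase family was taken next. Of 9 tested members, 2 rose and 0 fell, beside 1.92% of all tested genes called in either direction, and their median log2 fold change was 0.27, beside -0.015 for all tested genes. PARP3, a mono-ADP-ribosyltransferase tied to double strand break repair, had 38.7, 29.9, 47.1 and 66.4 CPM in treated 549, A375, A498 and H1703 cells, against 15.4, 15.6, 19.6 and 20.9 CPM untreated (log2 fold change 1.30 ± 0.19 SE, adjusted p = 0.0123, 4 of 4 lines). ZC3HAV1, the zinc finger antiviral protein that binds CpG-rich viral RNA, had 277, 208, 688 and 208 CPM treated, against 148, 130.2, 285 and 118 CPM untreated (0.92 ± 0.17, adjusted p = 0.0366, 4 of 4 lines). The PARP3 call was lost without 549 or without A498 (adjusted p = 0.0654 in both), and the ZC3HAV1 call without 549 (0.1296), A498 (0.1924) or H1703 (0.062). PARP15, which lies between DTX3L and PARP14, had 0 to 2 counts per library and was not tested. Of the 8 family members with a promoter window, 0 held ISRE core letters and 2 held GAS letters, PARP15 (TTCAGAGAA) and ZC3HAV1 (TTCCGGGAA).

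None of the tested genes around PARP9, DTX3L and PARP14 on 3q21 passed the threshold. Of 6 tested neighbours 0 were called by edgeR (2 at an unadjusted p under 0.05), with a median of -0.10, and DESeq2 called 1, FAM162A, lower. The smallest p-values belonged to FAM162A (-0.93 ± 0.24, adjusted p = 0.0910) and DIRC2 (-0.72 ± 0.26, adjusted p = 0.163), both lower in 4 of 4 lines.

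The lists for ADP-ribose removal, NAD supply and use, and ubiquitin ligases gave no calls by edgeR's quasi-likelihood test. Of 10 tested genes on the ADP-ribose removal list 0 were called (3 at an unadjusted p under 0.05, 0 by DESeq2, median -0.18). The smallest p-values were those of NUDT9 (-0.80 ± 0.24, adjusted p = 0.116), a hydrolase of free ADP-ribose, and ADPRHL1 (-0.69 ± 0.28, adjusted p = 0.204). For ADPRHL1, a place on the list does not show that it removes ADP-ribose. Of 11 tested genes of NAD supply and use 0 were called (3 at an unadjusted p under 0.05, 1 by DESeq2, QPRT, median 0.04), led by QPRT, an enzyme of NAD synthesis from tryptophan (-0.93 ± 0.27, adjusted p = 0.1102), and NNMT, which methylates nicotinamide (1.09 ± 0.42, adjusted p = 0.185). Of 7 tested Deltex and PAR-reading ubiquitin ligases 0 were called (4 at an unadjusted p under 0.05, 1 by DESeq2, RNF114, median 0.48), led by RNF114 (0.94 ± 0.25, adjusted p = 0.0940) and DTX4 (-1.06 ± 0.30, adjusted p = 0.109).

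Of 11 tested genes that act with PARP1 at strand breaks, 0 were called by edgeR (3 at an unadjusted p under 0.05, 2 by DESeq2, both lower, LIG1 among them), with a median of -0.18. LIG1, a DNA ligase, was lower in 4 of 4 lines (-1.13 ± 0.29, adjusted p = 0.0902). Without H1703, 2 were called lower, LIG1 (-1.50, adjusted p = 0.0314) and FEN1, the flap endonuclease (-1.17, adjusted p = 0.0314).

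IRF1, an interferon-induced transcription factor, had 672, 769, 1053 and 1181 CPM in treated 549, A375, A498 and H1703 cells, against 32.5, 15.9, 55.7 and 66.3 CPM untreated. Every treated library lay above every untreated one, and the log2 fold change was 4.57 ± 0.29 (SE, edgeR, adjusted p = 0.00018, 4 of 4 lines).

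**Figure D5:**
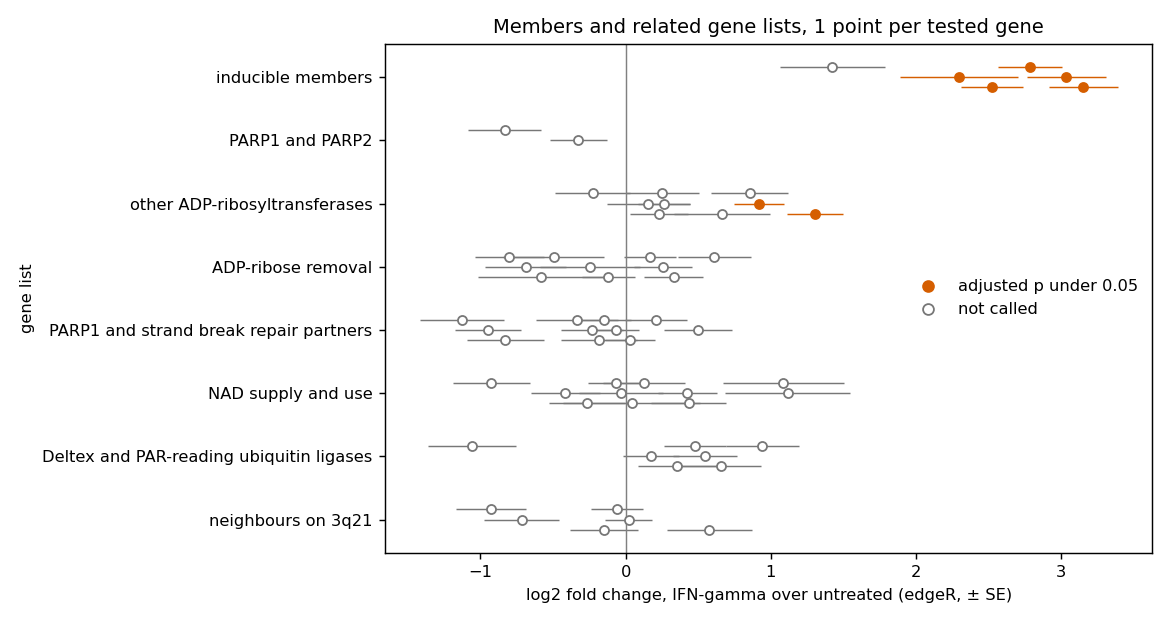
Log2 fold change ± SE (edgeR, IFN-gamma over untreated) of every tested gene of the members and the related lists; filled symbols passed an adjusted p of 0.05. Calls are 5 of 6 among the first 6 genes, 2 of 9 among the other ADP-ribosyltransferases and 0 in each of the other lists.

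Among the 9791 tested genes whose log2 CPM averaged 3 or more, the 5 whose log2 CPM followed PARP9 most closely over the 8 libraries were IFI35 (Pearson r = 0.985), ISG15 (0.980), DDX60 (0.971), HLA-F (0.969) and GBP4 (0.965). For PARP14 they were DDX60 (0.983), GBP4 (0.979), EIF2AK2 (0.972), ISG15 (0.969) and UBE2L6 (0.968). For PARP12 they were SP100 (0.994), SPDYE8P (0.988), IFIT3 (0.978), PMAIP1 (0.977) and DRAM1 (0.975), of which SPDYE8P was not called (0.47 ± 0.23, adjusted p = 0.285). Between the genes described here, r was 0.986 for PARP9 with DTX3L and 0.977 for PARP9 with PARP14. Reads from the overlap of PARP9 and DTX3L could enter the first of these values. The 8 libraries share 4 lines and the treatment, so these values describe likeness of pattern only.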

How the data were processed

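RNA sequencing libraries of 4 cell lines, treated or untreated, were grouped by their labels. The authors deposited raw counts per gene and log2 normalized values beside them, per the file headers. The deposited log2 values served 1 alternative. Bowtie2, edgeR and build hg19 are named, per the submitters' processing notes, without role or version. The labels' protocols name a stranded poly(A) kit and a 3' kit, and which was used is not settled. No source used here gives the counting tool or its use of strand. No per-sample column was left unused (0).

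Counts were summed by symbol (25737 rows) and filtered by edgeR's filterByExpr (minimum count 10, total 15), then scaled by TMM and tested by glmQLFit and glmQLFTest with cell line as a term (edgeR 4.0.16, R 4.3.3, 3 residual degrees of freedom). Deviations from arm means correlated at 0.847 to 0.903 between libraries of 1 line, the shared line being the source of the pairing, and at most at -0.09 between lines. Subtracting the mean of 4 lines by itself lowers the correlations between lines below 0 on average, so the value between lines does not measure the pairing. Alternatives were other scalings and filters, DESeq2 1.42.0, limma 3.58.1 (voom and the deposited log2 values), robust empirical Bayes, edgeR's likelihood ratio test, a model without cell line, and leaving out each line. The methods were tested on simulated data. Ratios by line carry exact binomial intervals at 95%, which cover counting error only. Named genes were the 8 members, each list's called genes or otherwise its 2 smallest p-values, IRF1, and the 5 genes most like PARP9, PARP14 and PARP12. A few genes under this rule are left out of the text. List genes that did not pass the filter were not tested. The members and lists were chosen with earlier results of these data known. Overlaps of genes follow GENCODE v29. Promoters came from the RefSeq table, in which PARP10 has no entry.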

Additional observations from a re-analysis of the deposited data

How the results depend on the processing

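The log2 fold changes of the 8 genes kept their sign under every alternative run. PARP8 passed the threshold with no filter (1.44), with DESeq2 (1.45) and with the likelihood ratio test (1.435). PARP1 passed it with DESeq2 (-0.84) and the likelihood ratio test (-0.83), so that 1 of the 8 genes was called lower by each. Without the pairing by line (no replicate block), PARP9 (2.83), DTX3L (2.88), PARP14 (3.35), PARP10 (2.06) and PARP12 (2.53) were not called, 0 of the 8 genes were called higher and 0 of all tested genes were called, with 543 at an unadjusted p under 0.05. Leaving out each line in turn moved PARP10 between 2.08 and 2.56, the calls among the other ADP-ribosyltransferases between 0 and 2 and those among the strand break partners between 0 and 2. Scaling by library size alone left 1 call among the other ADP-ribosyltransferases, ZC3HAV1 being lost (adjusted p = 0.0509). By DESeq2 and the likelihood ratio test, calls were 2 and 3 among the strand break partners, 1 and 1 in NAD supply, 1 and 2 among the ligases, 1 and 1 among the neighbours, and the likelihood ratio test also gave 1 in ADP-ribose removal, alternatives added after seeing the data. An ISRE core followed by C left 2 genes with a match, PARP9 and DTX3L, beside 4. Over all tested genes, higher calls (214) were 619 with no filter, 631 with DESeq2, 766 with the likelihood ratio test and 102 without A498. Lower calls (44) were 265, 405 and 553 in the first 3 of these, 82 with limma-voom, 26 with the deposited log2 values, and 3, 25, 4 and 140 without 549, A375, A498 and H1703. Depth limits PARP10 and PARP8 in 549, with 0 untreated counts.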

Other observations

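NAMPT, the rate-limiting enzyme of NAD salvage, was not called over the 4 lines (1.11 ± 0.43 SE, edgeR, adjusted p = 0.188), and it was picked after its values were seen. In A375 it had 9677 counts with IFN-gamma, against 1410 untreated, a fold of 7.79 (exact 95% interval 7.37 to 8.25, counting error only). In A498 it had 9491 counts treated, against 7568 untreated, a fold of 1.13. CSTA, a neighbour of PARP9 on 3q21 that did not pass the filter, had 302 counts in treated and 32 in untreated A375, and at most 15 in any other library.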
